A study of Mus musculus with 6 samples.

Results

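The mitochondrial ribosomal protein genes are the nuclear genes whose products build the ribosome inside mitochondria. Their members were chosen by symbol alone, as the genes whose names begin with Mrpl or Mrps followed by a digit, with pseudogenes left out. There were 78 of them among the 17463 genes measured, 49 Mrpl genes named for the large subunit and 29 Mrps genes named for the small one. The rule uses no expression value, although it was set with earlier results of these data known, and all 78 passed the filter on low counts that left 11277 genes for testing.

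The samples were erythroblasts from the fetal liver of C57BL/6J mice, purified as cells negative for TER119, which appears on the surface of erythroid cells as they mature. Culture lasted 30 h, in medium containing Epo (erythropoietin, the hormone of red cell production), with 40 µM cholesterol or without it (control). The study's methods state that cells positive for TER119 were then sorted for sequencing. There were 3 control and 3 cholesterol samples, numbered 1 to 3 in each group, and the labels call the controls untreated where the study's text calls them vehicle. The study's legend speaks of independent experiments for the values of its panels in general, but neither source says what the sample numbers stand for, so the p-values measure the spread between these samples, which may be technical. The comparison addresses how added cholesterol changes the transcriptome of differentiating erythroblasts.

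The mitochondrial ribosome translates the few messages that the mitochondrial genome encodes, all for core subunits of the respiratory chain and ATP synthase. Its proteins are made in the cytosol from nuclear messages and imported, and they assemble on rRNA that mitochondria transcribe themselves. Proteins with counterparts in bacteria form its core, and further proteins are particular to mitochondria. Erythroblasts depend on mitochondria for heme synthesis and lose them at the end of maturation.

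The libraries were alike in depth, with total counts from 19826797 to 20061702, so that 3 counts corresponded to about 0.15 CPM (a gene's counts relative to the library total, after TMM normalization). Erythroid markers were abundant in every library, with a summed level from 114246 to 169945 CPM over 10 genes. The same-numbered samples of both groups deviated together from their group means. Granulocyte, macrophage and mast cell markers also differed by number, and their values stand beside the results that they move with. Because these are bulk samples, fewer cells of a type and less RNA per cell cannot be told apart.

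Promoter sequences of 69 of the 78 members were found in RefSeq (GRCm38.p6), as windows of 250 bases before to 50 bases after the start. Both strands were searched for 4 motifs without mismatch. The motif of NRF1, a transcription factor known for nuclear genes of mitochondrial proteins, was present for 13 of 69 members (18.8%). This stood against 12.2% of the tested genes with a promoter and 5.19% of all genes in the promoter table. By subunit it was present for 10 of 43 Mrpl genes (23.3%) and 3 of 26 Mrps genes (11.5%). Respiratory chain and ATP synthase genes had it for 27.9%, and cytosolic ribosomal protein genes for 8.93%. The ETS motif CCGGAAG, bound by factors such as GABPA, was present for 26 members (37.7%), against 21.6% of tested genes. It was present for 34.9% of Mrpl and 42.3% of Mrps genes, 41.1% of cytosolic ribosomal protein genes and 26.2% of respiratory chain and ATP synthase genes. The YY1 motif was present for 5 members (7.25%), against 1.95% of tested genes, and the E-box CACGTG also for 5 (7.25%), against 1081 of 9032 tested genes. Such a match is a description of letters and not a binding site. Of these, 5 windows are shown for the 120 bases before the start. Those of Mrpl12, Mrpl30 and Mrps21 hold the same NRF1 letters and were picked after their levels across samples were seen. Those of Mrpl52 and Mrps18a are shown because they hold the ETS letters on opposite strands. The capitals mark the motif, and the sequences read 5′ to 3′ on the strand of the gene. Mrpl12 lies at chr11:120484517-120484636 (+), Mrpl30 at chr1:37890357-37890476 (+), Mrps21 at chr3:95871515-95871634 (-), Mrpl52 at chr14:54426789-54426908 (+) and Mrps18a at chr17:46110884-46111003 (+).
Mrpl12: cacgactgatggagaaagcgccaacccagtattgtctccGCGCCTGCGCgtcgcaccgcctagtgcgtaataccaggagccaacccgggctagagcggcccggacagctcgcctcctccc
Mrpl30: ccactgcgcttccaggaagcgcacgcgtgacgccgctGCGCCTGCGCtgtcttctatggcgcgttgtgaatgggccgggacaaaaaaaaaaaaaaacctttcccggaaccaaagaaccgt
Mrps21: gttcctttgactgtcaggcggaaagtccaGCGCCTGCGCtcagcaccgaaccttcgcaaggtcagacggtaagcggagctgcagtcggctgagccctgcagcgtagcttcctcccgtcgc
Mrpl52: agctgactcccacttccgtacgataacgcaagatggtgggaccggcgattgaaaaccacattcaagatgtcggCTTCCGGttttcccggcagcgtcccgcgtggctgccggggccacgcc
Mrps18a: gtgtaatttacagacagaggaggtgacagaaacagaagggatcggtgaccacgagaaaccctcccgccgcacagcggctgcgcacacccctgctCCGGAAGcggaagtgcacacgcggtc

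In the GENCODE annotation of GRCm38, the 78 genes lay on 17 chromosomes, with 11 of them on chromosome 11. A protein-coding gene that did not overlap the member began on the other strand, within 1000 bases upstream of its start, for 18 members (23.1%), against 1238 of 11093 tested protein-coding genes (11.2%). Among the members named below, Mrpl30 was paired in this way with Mitd1, Mrps18b with Ppp1r10, Mrps18c with Helq and Mrps27 with Ptcd2. Another protein-coding gene overlapped 26 members, such as Slc5a3 at Mrps6, Tcp1 at Mrpl18, Oaz3 at Mrpl9 and Wdfy1 at Mrpl44. The library protocol in the labels does not mark strand, and at Mrps6 the overlapping gene lies on the same strand. The levels of overlapped members are therefore uncertain where reads from both genes could be counted.

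The members were expressed at moderate levels that differed between genes. Between genes, levels are given as FPKM, which divides reads by transcript length. The median of the mean FPKM over 6 samples was 32.0 for Mrpl genes and 33.0 for Mrps genes. The cytosolic ribosomal protein genes, whose ribosomes take much of an erythroblast's capacity to make globin, had a median of 1209 FPKM (76 genes), and the nuclear genes of the respiratory chain and ATP synthase had one of 133 FPKM (76 genes). Members listed here as having a bacterial counterpart had a median of 35 FPKM (44 genes). Those not so listed, Mrpl47 among them, had 28.1 FPKM (34 genes).

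Levels of single members ranged from 5.79 to 152 FPKM, a 26.3-fold range. Of the large subunit genes, Mrpl30 was highest at 152 ± 8.11 FPKM (SD, n = 6 over both groups), followed by Mrpl52 at 130 ± 18.3 and Mrpl18 at 118 ± 17.3. The ranges of mean ± SD of neighbours in this order overlapped. Mrpl19 at 5.83 ± 1.21, Mrpl17 at 7.52 ± 0.937 and Mrpl44, which has a fold like that of ribonuclease III, at 10.1 ± 1.26 FPKM were the lowest. Over the 78 members FPKM was lower where the gene length implied by count and FPKM was longer (Spearman correlation -0.70). A low place in this order therefore need not mean few reads. Mrpl17 had 1162 counts in control 1, beside 1118 for Mrpl52. Of the small subunit genes, Mrps18c was highest at 119 ± 6.49 FPKM, and Mrps16 and Mrps36 followed at 92.1 ± 8.69 and 91.5 ± 5.15, values that did not differ beyond their spread. At the low end were Mrps27, an RNA-binding pentatricopeptide repeat protein, at 5.79 ± 1.49, Mrps6 at 6.11 ± 2.36 and Mrps25 at 7.73 ± 0.968 FPKM, and their ranges of mean ± SD overlapped.

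**Figure D1:**
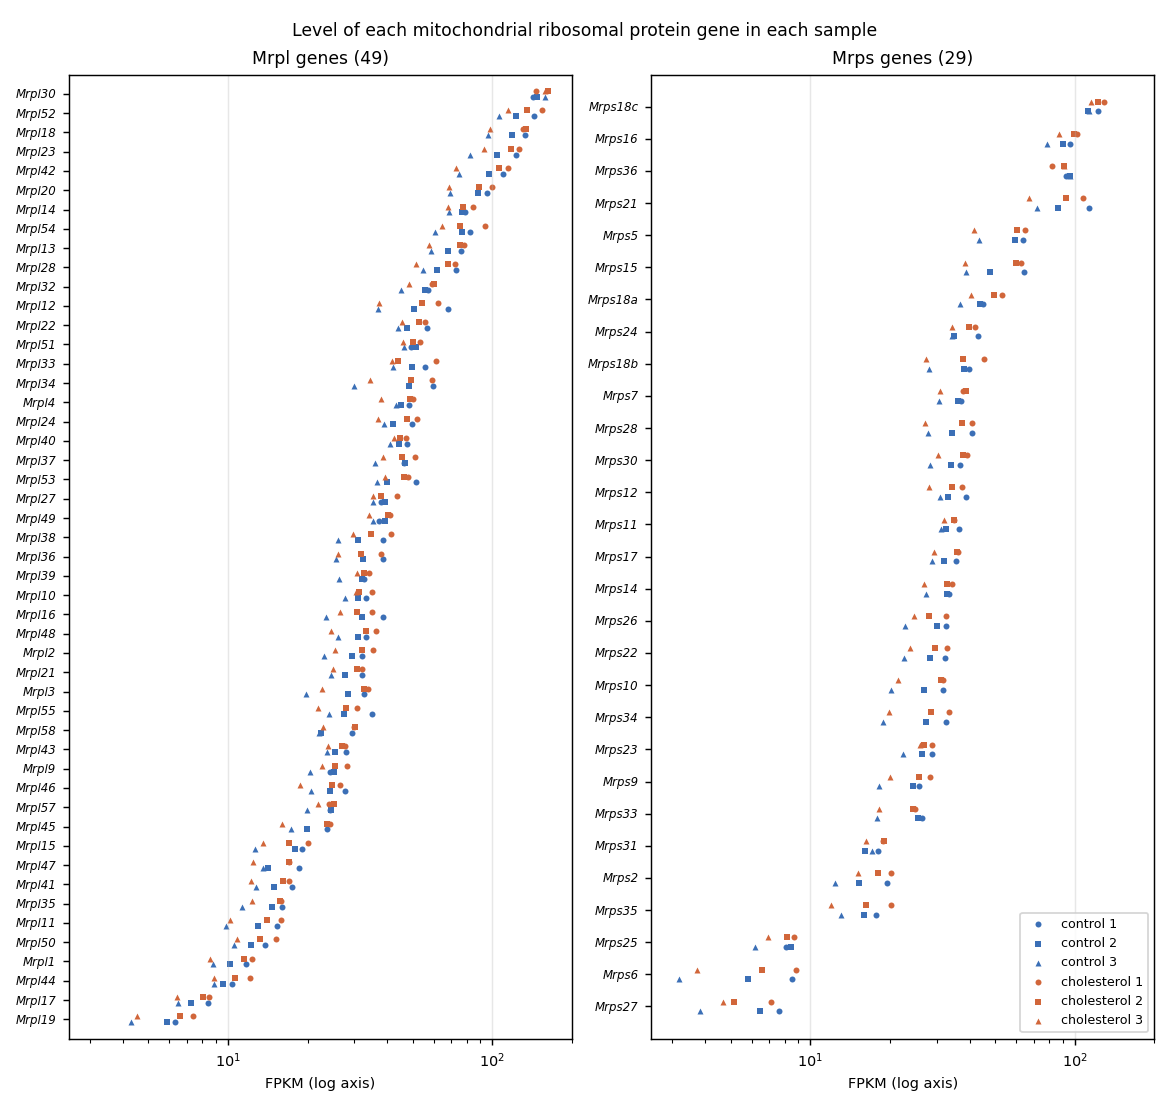
Level in FPKM (log axis) of each of 49 Mrpl genes and 29 Mrps genes, sorted by mean, with 1 point per sample, blue for control and orange for cholesterol, and a marker shape for each replicate number. The points of a gene lie close together beside the 26.3-fold range between genes, and samples numbered 3 (triangles) lie to the left for most genes.

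With cholesterol, no mitochondrial ribosomal protein gene passed the test for a change. Of 49 Mrpl genes 0 passed an adjusted p under 0.05 in edgeR's quasi-likelihood test, and of 29 Mrps genes also 0 passed it, where 0.00887% of all genes tested did. At an unadjusted p under 0.05 the count was 0 of 78, against 2.63% of all genes, and the DESeq2 Wald test and limma on log2(FPKM + 1) also called 0. The fitted log2 fold changes ran from -0.13 to 0.14 for Mrpl genes, with a median of 0.03 and 35 of 49 above 0. For Mrps genes they ran from -0.14 to 0.16, with a median of 0.02 and 19 of 29 above 0. Over all genes tested the median was 0.01, with 52.1% above 0. Read by place in the ribosome, with Mrps30 and Mrps18a (proteins of the large subunit in spite of their symbols) moved and Mrps36 left out, the median was 0.03 for 51 large and 0.02 for 26 small subunit genes.

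The replicate number, used as a block, narrowed the intervals without giving a call. With it, 0 of 78 members passed an adjusted p under 0.05, where 6.85% of all genes did, and the lowest adjusted p of a member was 0.121 by edgeR. At an unadjusted p under 0.05 there were 4 members (Mrpl19, Mrps2, Mrps18a and Mrps36), against 19.6% of all genes. That count was 12 with the block and total counts, where 2516 of all 11277 genes had such a p. It was 12 with the block in limma on log2(FPKM + 1), where 2108 of 11277 genes had one. With the block in DESeq2 it was 0, where 1024 of 16509 genes had one. The 95% intervals of the log2 fold change lay within -0.32 and 0.43 for all 78 members with the block, which is inside a 1.5-fold change in either direction. With condition alone they reached from -0.96 to 1.14, and 70 of 78 lay inside 1.5-fold. The medians turned below 0 when control 3, cholesterol 1 or, for Mrpl genes, cholesterol 2 was left out, with medians of -0.05, -0.04 and -0.00 for Mrpl genes and -0.09, -0.06 and 0.00 for Mrps genes. They rose to 0.13 for both when control 1 was left out, and to 0.12 for both when cholesterol 3 was. The members above 0 ranged from 9 of 49 Mrpl and 5 of 29 Mrps genes without control 3 to 49 and 28 without control 1.

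**Figure D2:**
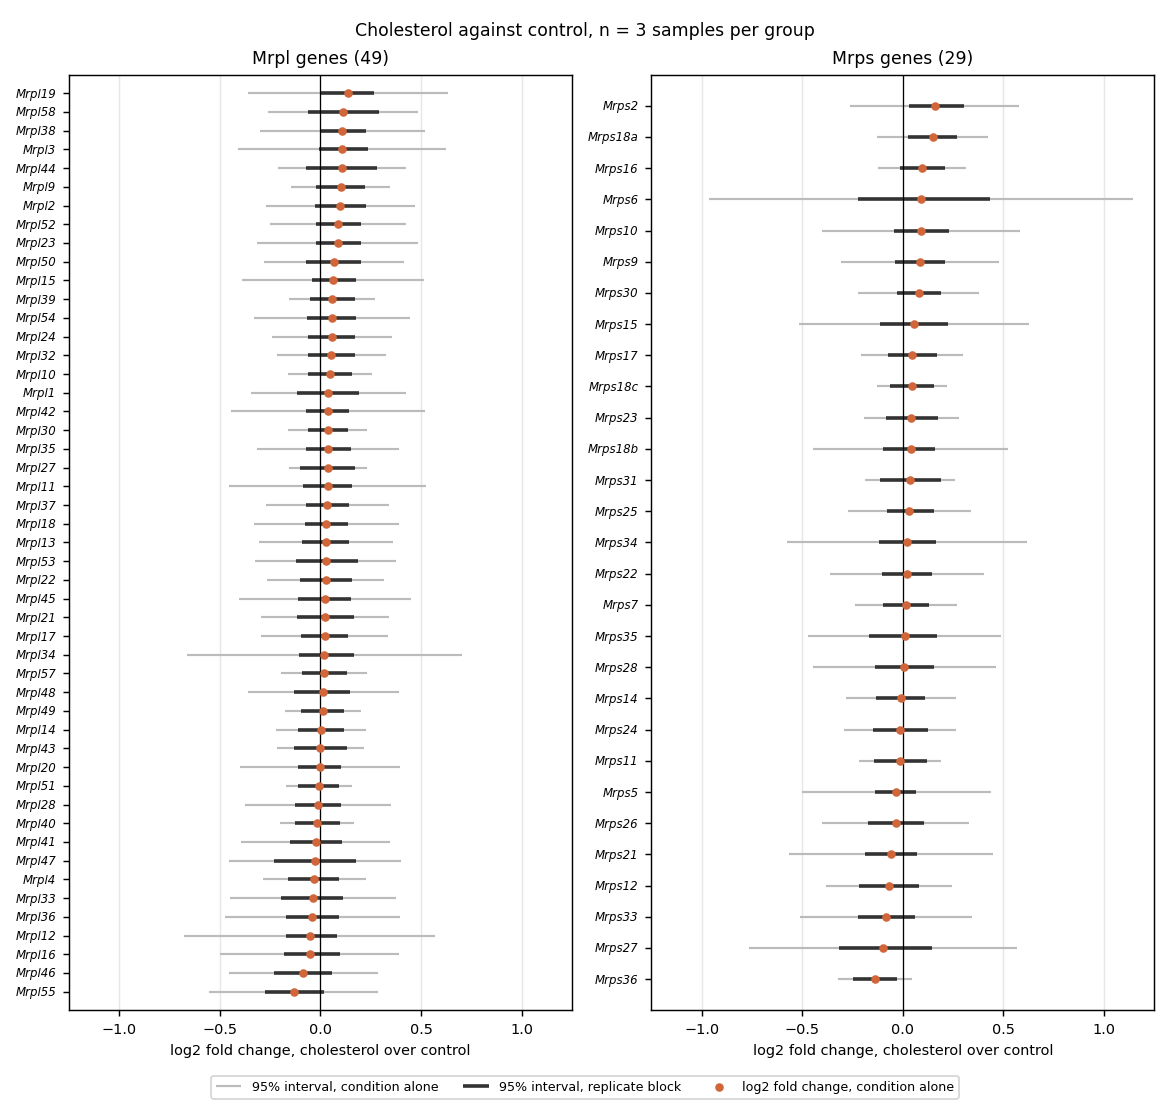
Log2 fold change of cholesterol over control for each Mrpl and Mrps gene (orange points, edgeR with condition alone, n = 3 per group), with its 95% interval from that model (grey) and from the model with the replicate block (black). The points lie between -0.14 and 0.16, and every black interval is inside 1.5-fold.

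Compared within same-numbered pairs, the mean log2 CPM of the 49 Mrpl genes was 5.51, 5.30 and 5.13 in control and 5.50, 5.39 and 5.13 with cholesterol, given here and below in the order of sample numbers 1 to 3. The differences, cholesterol minus control, were -0.01, 0.09 and 0.00, with a mean of 0.03 ± 0.05 (SD, n = 3 pairs). The samples of the pair numbered 1 were highest in both groups and those numbered 3 lowest, and the groups overlapped fully. For the 29 Mrps genes the means were 5.20, 4.99 and 4.77 in control and 5.18, 5.06 and 4.79 with cholesterol. Their differences were -0.02, 0.07 and 0.02, with a mean of 0.02 ± 0.05 (SD, n = 3 pairs). These shifts depended on the scaling. With total counts the mean over pairs was 0.06 ± 0.03 for Mrpl and 0.05 ± 0.02 for Mrps genes, and on log2(FPKM + 1) it was 0.06 ± 0.03 and 0.05 ± 0.02 (SD, n = 3 pairs), with all 3 pairs above 0 in each. The shifts were smaller than their SD over pairs with TMM, and larger than it with total counts and on log2(FPKM + 1). With total counts the fitted median over all genes was also above 0, at 0.04. The SD over control samples with TMM was 0.19 for Mrpl and 0.22 for Mrps genes. It holds the spread between numbers, which pairing removes, so the paired shifts are not judged against it.

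More members were higher with cholesterol in the second pair than in the others. In it 41 of 49 Mrpl and 23 of 29 Mrps genes were higher with cholesterol, against 21 and 12 in the first pair and 22 and 14 in the third. Of the 78 members, 16 were higher in all 3 pairs, where 19.9% of all genes were, and 3 were lower in all 3 pairs (Mrpl36, Mrps33 and Mrps36), where 20.2% of all genes were. Mrpl36 and Mrps33 are named only for this count, after their values were seen. The balance of the subunits stayed level, with the mean log2 CPM of Mrpl genes above that of Mrps genes by 0.32 ± 0.03 (SD, n = 3) in control and 0.33 ± 0.01 (SD, n = 3) with cholesterol.

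Of the large subunit genes with the smallest p, Mrpl19 had 32.8, 29.7 and 22.8 CPM in control and 37.2, 33.1 and 23.6 CPM with cholesterol. Its log2 fold change was 0.14 (SE 0.21), and 0.13 (SE 0.06) with the block, where edgeR gave an adjusted p of 0.252. Mrpl19 was higher with cholesterol in each pair, but the groups overlapped because both samples numbered 3 were low. With condition alone its log2 fold change was -0.004 without cholesterol 1 and 0.309 without cholesterol 3. Mrpl9 had 39.7, 39.9 and 34.1 CPM in control and 44.5, 40.2 and 37.1 CPM with cholesterol, a log2 fold change of 0.10 (SE 0.10), and Mrpl39 one of 0.06 (SE 0.09). Mrpl58, a peptidyl-tRNA hydrolase that frees stalled mitochondrial ribosomes, had 24.0, 18.1 and 18.7 CPM in control and 23.6, 23.7 and 18.6 CPM with cholesterol. Its log2 fold change of 0.11 (SE 0.15) rested on the second pair, the only one in which it was higher. Mrpl44 had a log2 fold change of 0.11 (SE 0.13). Mrpl55, a protein without a bacterial counterpart, had the lowest value of the large subunit genes at -0.13 (SE 0.17). It had 33.6, 25.5 and 23.5 CPM in control and 28.4, 25.8 and 21.0 CPM with cholesterol. With condition alone its log2 fold change was 0.038 without control 1 and -0.234 without control 3. None of these 6 genes separated the groups.

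Mrpl12, a stalk protein through which translation factors contact the ribosome, showed how much larger the spread over numbers was than the difference with cholesterol. It had 65.0, 46.9 and 36.2 CPM in control and 57.1, 50.1 and 35.5 CPM with cholesterol. The samples numbered 1 were high and those numbered 3 low in both groups, and the log2 fold change was -0.05 (SE 0.26), or -0.04 (SE 0.06) with the block. The 3 most abundant large subunit genes had log2 fold changes of 0.04 (SE 0.08) for Mrpl30, 0.09 (SE 0.14) for Mrpl52 and 0.03 (SE 0.15) for Mrpl18, and Mrpl17, at the low end, one of 0.02 (SE 0.13).

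Among the genes named for the small subunit, Mrps36 alone had groups that did not overlap, and the cholesterol samples were the lower ones, as for 4.28% of all genes. Its product is known as a subunit of the oxoglutarate dehydrogenase complex of the citric acid cycle, and it is no longer counted as a ribosomal protein. It had 65.7, 66.1 and 69.9 CPM in control and 56.2, 62.6 and 64.6 CPM with cholesterol. All 3 cholesterol samples lay below all 3 control samples, the lowest being cholesterol 1. The log2 fold change was -0.14 (SE 0.08, 95% interval -0.32 to 0.05), and with the block -0.14 (SE 0.05, 95% interval -0.25 to -0.03), at an adjusted p of 0.121 by edgeR, so that it did not pass the test.

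The Mrps18 genes encode 3 related proteins that sit at different places. Mrps18a, in the large subunit, had 39.0, 36.7 and 32.8 CPM in control and 44.2, 41.2 and 35 CPM with cholesterol. It was higher in each pair, with overlapping groups, and its log2 fold change was 0.15 (SE 0.11), or 0.15 (SE 0.06) with the block, at an adjusted p of 0.143 by edgeR. Mrps18b had 41.8, 39.0 and 30.2 CPM in control and 46.4, 38.6 and 28.9 CPM with cholesterol, a log2 fold change of 0.04 (SE 0.20). Mrps18c had 59.4, 52.8 and 56.4 CPM in control and 60.4, 57.4 and 56.0 CPM with cholesterol, a log2 fold change of 0.04 (SE 0.07), and was nearly level over all 6 samples.

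Mrps2 had the highest log2 fold change of all members at 0.16 (SE 0.17), or 0.17 (SE 0.07) with the block, at an adjusted p of 0.144 by edgeR. Its levels were 40.8, 31.2 and 26.6 CPM in control and 41.0, 36.6 and 32.4 CPM with cholesterol, so the first pair was nearly equal and the other pairs were higher with cholesterol. Mrps16 had a log2 fold change of 0.10 (SE 0.09), Mrps30 one of 0.08 (SE 0.12) and Mrps25 one of 0.03 (SE 0.13). Mrps27 had one of -0.10 (SE 0.28). Mrps6 held the fewest counts of all members, down to 49 in a sample, and its 6.62, 4.41 and 2.54 CPM in control stood beside 6.65, 4.89 and 2.91 CPM with cholesterol. Its 95% interval with condition alone ran from -0.96 to 1.14.

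What did set the members' levels apart was the replicate number. Of the 78 members, 76 were higher in sample 1 than in sample 3 in control and also with cholesterol, where 41.7% of all genes were, and the exceptions were Mrpl30 and Mrps36. Control 1 stood over control 3 by a median of 1.30-fold for Mrpl genes and 1.33-fold for Mrps genes, and cholesterol 1 over cholesterol 3 by 1.31-fold and 1.27-fold. The number held a median of 90.4% of a member's sum of squares of log2 CPM and the condition 1.37%, beside 72.5% and 8.38% over all genes. For 76 of 78 members the number held more than 50% of it, the exceptions being Mrps36, where the condition did, and Mrps31, where neither did.

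Tested in edgeR with the condition in the model, a comparison chosen after the data were seen, 43 of 49 Mrpl and 25 of 29 Mrps genes were lower in the samples numbered 3 than in those numbered 1 at an adjusted p under 0.05, where 24.9% of all genes were lower and 24.3% higher. This test had 2 samples per number, and DESeq2 gave 30 and 17. The median log2 difference was -0.39 for Mrpl and -0.41 for Mrps genes, beside -0.01 over all genes. It was lowest for Mrps6 at -1.28 (SE 0.20), which had 6.62 CPM in control 1 and 2.54 CPM in control 3. Mrpl34 followed at -0.85 (SE 0.08), with 38.0, 30.0 and 19.5 CPM in control and 36.4, 30.4 and 21.9 CPM with cholesterol, then Mrpl12 at -0.77 (SE 0.07) and Mrps27 at -0.75 (SE 0.14). Mrps21 had -0.61 (SE 0.08). The rule for named genes does not cover Mrpl34, Mrps31 or Mrps21, which were picked once their values were known.

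Mrpl30 was the only member called in the other direction, at 0.18 (SE 0.06, adjusted p = 0.016 by edgeR). It had 100, 101 and 113 CPM in control and 99.5, 110 and 113 CPM with cholesterol, so it was lowest where most members were highest. Mrpl12 and Mrps21, whose promoter windows above show the same NRF1 letters as that of Mrpl30, were lower in the samples numbered 3. They were picked by their values from 13 members with that motif. The part of the motif in the difference by number was not tested. Mrps36, at 0.14 (SE 0.06, adjusted p = 0.064), did not pass this test.

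**Figure D3:**
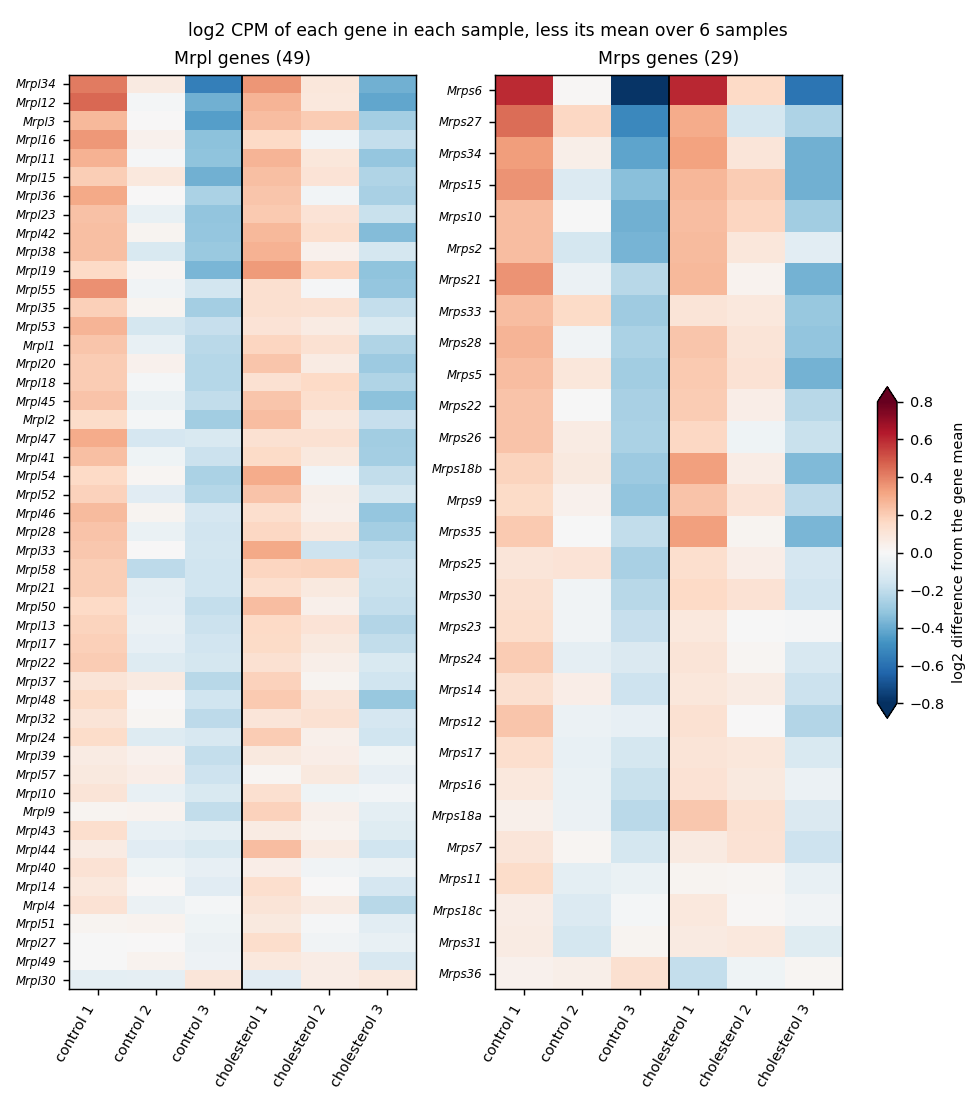
Difference of each gene's log2 CPM in a sample from its mean over 6 samples, for 49 Mrpl and 29 Mrps genes sorted by the ratio of control 1 to control 3 (red higher, blue lower, black line between control and cholesterol). Samples numbered 1 are red and samples numbered 3 blue in both groups for most genes, with Mrpl30 and Mrps36 at the bottom as exceptions.

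Other lists of genes for translation and mitochondria also held a larger share called lower in the samples numbered 3 than the 24.9% of all genes. Of the other mitochondrial translation genes 46 of 79 were called lower, with a median log2 difference of -0.31. Of the cytosolic ribosomal protein genes 60 of 76 were, with a median log2 difference of -0.22, and of the respiratory chain and ATP synthase genes 51 of 76, with a median of -0.23. Granulocyte, macrophage and mast cell markers moved with the number in the opposite direction. The summed level of 9 granulocyte markers was 70.4, 253 and 674 CPM in control and 40.5, 110 and 281 CPM with cholesterol. Of these, 9 of 9 were called higher in samples numbered 3 than in those numbered 1, where 24.3% of all genes were. Macrophage markers summed to 18.1, 41.4 and 128 CPM in control and 13.3, 19.1 and 56.4 CPM with cholesterol, with 7 of 7 tested higher, and mast cell markers stayed at or below 19.1 CPM with the same order. Of the megakaryocyte markers 1 of 6 was higher in the samples numbered 3, and of the hepatocyte markers 0 of 5 passed the test. The markers also differed by treatment. With the replicate block 9 of 9 granulocyte, 5 of 7 macrophage and 3 of 10 erythroid markers were called lower with cholesterol. Over all genes 5.20% were, and with condition alone 0 of each list were called. Of 6 mast cell markers only 2 passed the filter on low counts. Samples where they are high could decide that, so no calls are given for them. Of the erythroid markers 7 of 10 were higher in samples numbered 3 and 2 lower, and the adult globin genes took 14.6%, 13.8% and 17.9% of counts in control and 12.5%, 13.0% and 16.2% with cholesterol. The part of these cells, or of maturation, in the members' difference by number was not tested.

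**Figure D4:**
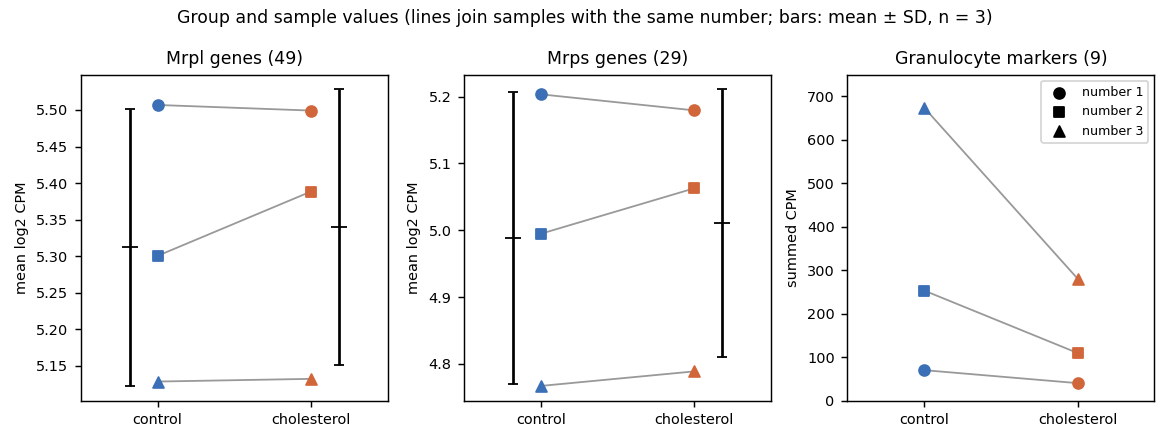
Mean log2 CPM of the 49 Mrpl and 29 Mrps genes and summed CPM of 9 granulocyte markers in each sample, with lines joining same-numbered samples and bars giving the mean ± SD of a group (n = 3). The Mrpl and Mrps means differ by number and hardly by group, and the granulocyte markers are highest in the samples numbered 3 and lower with cholesterol in each pair.

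The other genes of mitochondrial translation also had no call. Of 82 genes listed for further ribosomal proteins, translation factors, ribosome assembly, tRNA synthetases and mitochondrial transcription, 79 were measured and tested, and 0 passed an adjusted p under 0.05 by edgeR, with 0 at an unadjusted p under 0.05. With the block 0 passed, against 6.85% of all genes, and 6 had an unadjusted p under 0.05, against 19.6% of all genes. The lowest adjusted p with the block was 0.056 by edgeR. Their median log2 fold change was 0.01, with 46 of 79 above 0. Gadd45gip1 and Dap3, ribosomal proteins with other symbols, had 0.10 (SE 0.11) and 0.03 (SE 0.14). Of the translation factors, Mrrf, which recycles ribosomes, had -0.18 (SE 0.11) and Mtrf1, a release factor, -0.39 (SE 0.24).

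Of the assembly factors, the rRNA methyltransferase Mettl15 had a log2 fold change of -0.20 (SE 0.13) and the pseudouridine synthase Rpusd4 one of 0.29 (SE 0.20). Rpusd4 had 10.8, 8.27 and 7.37 CPM in control and 12.4, 11.1 and 8.89 CPM with cholesterol and was higher in each pair, with an adjusted p of 0.098 by edgeR with the block. Sars2 and Mars2, the mitochondrial seryl- and methionyl-tRNA synthetases, had 0.12 (SE 0.14) and 0.14 (SE 0.21). In the list for mitochondrial transcription, Polrmt, the mitochondrial RNA polymerase, had 0.12 (SE 0.09) and Mterf2 had -0.14 (SE 0.20). Of the regulators of nuclear genes for mitochondria, Yy1 had 0.11 (SE 0.07) and Pprc1, a coactivator related to PGC-1, 0.17 (SE 0.14). None of these genes passed the test.

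The cytosolic ribosomal protein genes, given beside the mitochondrial ones, had log2 fold changes above 0 for 76 of 76 genes, with a median of 0.08, and 6 of 76 passed an adjusted p under 0.05 with the block, where 1.65% of all genes were called higher. With condition alone 0 of 76 passed. In the same comparison 10 of 10 erythroid markers had log2 fold changes below 0, with a median of -0.10, and the granulocyte and macrophage markers were lower as given above. The part of these markers' cells in the values of the cytosolic genes was not tested. The difference between these genes and the mitochondrial ones was not tested. Of the respiratory chain and ATP synthase genes 44 of 76 were above 0, with a median of 0.01 and 0 calls. Of 13 listed genes of the mitochondrial genome itself 0 were among the genes measured, so their transcripts could not be analysed.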

How the data were processed

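Gene expression was measured by RNA-seq in 6 samples, 3 control and 3 cholesterol. RNA was selected by poly(A) and read as single-end reads of 50 bases. The authors deposited estimated counts per gene, made with RSEM according to the submitters' processing notes, which also list HISAT2 2.0.4, Bowtie2 2.2.5, RSEM 1.2.12, DESeq2 1.4.5 and the build GRCm38.p6. They also deposited normalized values without a named unit, taken here as FPKM because, over 5880 genes, the gene length implied by the count and the value varied between samples by a median CV of 0.28%.

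The estimated counts, of which 27.9% to 29.5% were not whole, were rounded and tested with edgeR 4.0.16 in R 4.3.3 (filterByExpr with at least 10 counts, TMM, robust quasi-likelihood test) with condition alone, and p-values were adjusted by Benjamini-Hochberg over 11277 genes. Total counts of 19826797 to 20061702 per sample set the precision, with a floor of 3 counts. Replicate numbers in the titles paired the samples, since the correlations of deviations of same-numbered samples were 0.710, 0.322 and 0.812, although control 1 correlated with cholesterol 2 at 0.321, as much as control 2 did. The model was also fitted with the number as a block. The comparison of samples numbered 3 with those numbered 1 was added after seeing the data. Alternatives were DESeq2 1.42.0, limma 3.58.1 on log2(FPKM + 1), other filters and scalings, and leaving out samples.

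Named genes were, per subunit, the 6 with the smallest p, the 3 highest and the 3 lowest in FPKM, members set apart by place or function (Mrps30, Mrps18a, Mrps36, Mrpl12, Mrpl58, Mrps18b and Mrps18c), and 2 genes per pathway list. The rule for the members uses symbols and no value, but the members and lists were chosen with earlier results of these data known. Positions came from GENCODE and promoters from RefSeq, both on GRCm38.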

Additional observations from a re-analysis of the deposited data

How the results depend on the processing

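No Mrpl or Mrps gene passed the threshold in any of the 22 settings run, in which the lowest adjusted p of a member was 0.067, with the replicate block and without replicate 1. Leaving out 1 sample at a time moved the median log2 fold change of Mrpl genes between -0.049 and 0.13 and that of Mrps genes between -0.086 and 0.13. The count of genes called among all genes depended on the setting. It was 1 with condition alone, 772 with the replicate block, 28 with DESeq2, 720 with the block and DESeq2 size factors, 713 with the block and total counts, 286 with the block in DESeq2 and 49 with the block in limma. Leaving out samples gave 1 to 8 with condition alone and 821, 296 and 726 with the block and without replicates 1, 2 and 3. Among the other mitochondrial translation genes 1 was called with the block and total counts, and 0 to 1 when a replicate was left out of the block. With total counts the median log2 fold change was 0.04 over all genes, against 0.01 with TMM, and that of Mrpl and Mrps genes was 0.06 and 0.05, with 43 of 49 and 22 of 29 above 0. The block changed no call of a member. Mrps6, with the fewest counts, had the widest interval.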
